A study of Danio rerio with 12 samples.

Results

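All larvae exposed to perfluorooctanesulfonate (PFOS) were compared, as 1 group, with larvae of the solvent control. The exposed group held the 9 RNA-seq libraries of 0.03, 0.3 and 1 ppm PFOS, 3 libraries a dose, and the control group held the 3 libraries titled as controls, so that all 12 libraries of the series took part. Every library was made from a pool of 10 whole zebrafish larvae of wild type, kept in the test water from 2 to 5 days post fertilization and collected at 5 days. PFOS was given as its potassium salt, in solutions prepared fresh each day. Exposed and control water alike carried 0.2% DMSO, the solvent of the stock. The replicate number (1, 2 or 3) entered the comparison as a block, which sets each control beside the 3 exposed libraries of its own number. Of 26873 genes in the files, 22320 had a value of 10 or more in at least 3 of the 12 libraries and were tested. Nothing in the labels ties the replicates to clutches, tanks or days, and the p-values therefore speak of variation among libraries that may be technical. The values are normalised counts, that is, read counts that the authors had scaled between libraries and rounded. The question addressed is which genes differ between larvae with and without PFOS whatever the dose.

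PFOS is a perfluorinated surfactant that persists in water and tissue, binds to serum proteins and accumulates in liver. A larva of this age swims, has begun to use up its yolk and defends itself by innate immunity alone, mainly through macrophages and neutrophils. Interferons act through STAT transcription factors to switch on antiviral genes. In muscle, FoxO transcription factors switch on ubiquitin ligases that mark contractile proteins for the proteasome. Both programmes are transcriptional, so their target genes can be read in RNA.

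After the authors' scaling the libraries had similar totals, which the scaling itself favours. They totalled 24061372 to 31907243 normalised counts in exposed larvae and 26550471 to 30824955 in control larvae. The reads behind them were estimated from the spacing of the rounded values. They averaged 28.9 ± 3.19 megareads in exposed libraries (SD, n = 9) and 25.7 ± 3.51 megareads in control libraries (SD, n = 3). A two-sided exact permutation test within replicate numbers gave p = 0.219 (64 arrangements, smallest possible p 0.0156). The spacing could not be read in 0.3 ppm replicate 3, whose depth rests on an assumed scale factor of 1. The lowest estimate was 21.6 megareads, in control replicate 1, and the highest 34.9 megareads, in 1 ppm replicate 3. Between 21422 and 21751 genes reached a value of 10 in an exposed library, and between 21636 and 21775 in a control library (p = 0.0781 in the same exact test). The first principal component, with 28% of the variance, set the 4 libraries of replicate 2 apart at scores of 31.8 or more. The second, with 15.9%, placed control replicate 1 at -61.9, away from all other libraries. Where the call of a gene named by the rule was lost without a control library, the loss is given below. For psme2, dcn, igfbp5b and alox5b.1 it is given only as a number of fits and the largest adjusted p. Summed over its members in the files, tested or not, each of 39 gene lists of tissues and pathways took at least 0.0245% of the counts of every library.

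The genes that passed the test were almost all lower in exposed larvae. At a Benjamini-Hochberg adjusted p under 0.05 in limma, 87 genes were called, 0.390% of those tested. In exposed larvae 85 of them were lower (0.381% of genes tested), and 2, dcn and igfbp5b, were higher (0.00896%). Over the 85 the median log2 fold change (exposed over control) was -1.68, with a range of -4.57 to -0.57. The drop was at least 2-fold in 70 genes and at least 4-fold in 30. The median gene among all tested had a log2 fold change of -0.01, and 52.5% of genes were lower. At an unadjusted p under 0.05 the split was more even, with 1027 genes lower and 804 higher, together 8.20% of those tested.

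**Figure D1:**
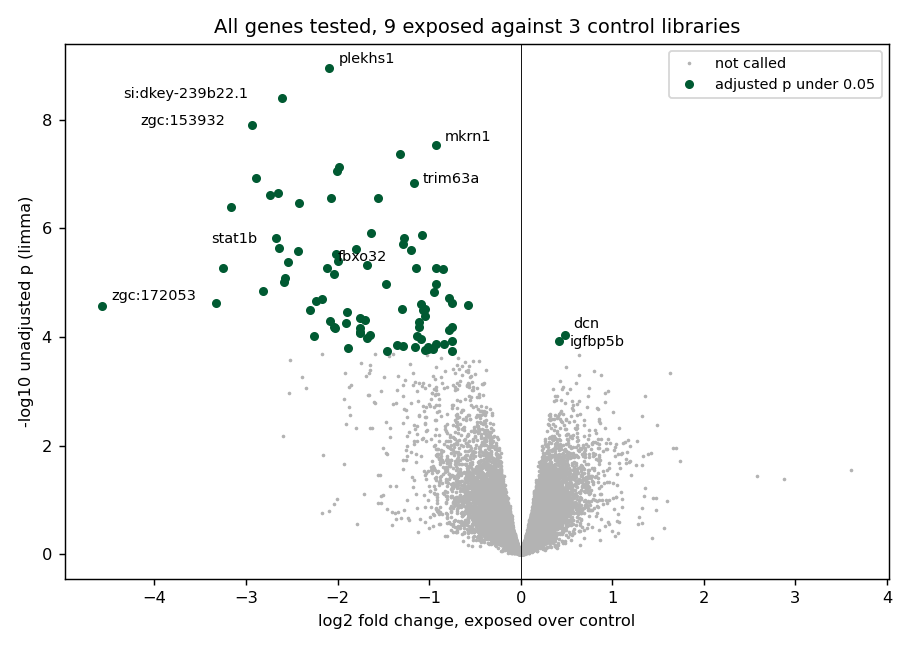
Log2 fold change of exposed over control larvae (horizontal) against -log10 of the unadjusted limma p (vertical) for the 22320 genes tested. Each point is 1 gene, green where the adjusted p was under 0.05. The 85 green points on the left reach -4.57, while the 2 on the right, dcn and igfbp5b, stay at 0.48 and 0.42.

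Exposed and control libraries did not overlap in 78 of the 87 called genes. Over all genes tested this held for 296, or 1.33%, of which 215 were lower and 81 higher in exposed larvae. The calls were made on the same values, so the contrast between these shares is a description. Within each replicate number the mean of the exposed libraries was under its control for all 85 lower genes. The median log2 differences were -1.74, -1.30 and -1.71 in numbers 1, 2 and 3. A call rests on these same differences, so their agreement is favoured by the choice of the genes. The highest of the 3 control values was that of replicate 1 in 22 of the 85 genes, of replicate 2 in 27 and of replicate 3 in 36. Each control was thus the highest for a part of the genes. The number of calls depended on all 3, and 27 of the 87 genes were called whichever single library was left out. Without control replicate 1 the comparison called 34 genes, 31 of them among the 87. Without control replicate 2 it called 67, and without control replicate 3 it called 51.

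Genes of ubiquitin ligases that act in muscle atrophy were among those called lower. fbxo32 (ENSDARG00000040277) encodes atrogin-1, a subunit of an SCF ubiquitin ligase that rises in wasting muscle. It had 113 to 347 normalised counts in exposed libraries, with a median of 151, against 696, 462 and 1063 in control replicates 1, 2 and 3. The groups did not overlap, and the exposed value nearest to them came from 0.03 ppm replicate 2. The log2 fold change was -2.12 (SE 0.289, adjusted p = 0.00371), a 4.34-fold drop. trim63a (ENSDARG00000028027) encodes MuRF1, the ligase that marks myosin and other sarcomere proteins. Its exposed values ran from 658 to 994 with a median of 749, and its control values were 1665, 1476 and 1997. All exposed libraries were below all controls, with a log2 fold change of -1.17 (SE 0.116, adjusted p = 0.000360).

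pdk2b (ENSDARG00000059054), a pyruvate dehydrogenase kinase that restrains glucose oxidation, averaged 2479 ± 514 normalised counts in exposed larvae and 4625 ± 168 in controls (SD, n = 9 and 3, adjusted p = 0.00611). These 3 genes were the called members of the list of muscle atrophy and FoxO targets, in which 31 of 43 tested genes were lower in exposed larvae. The list's median log2 fold change was -0.17, and the share called was 6.98% against 0.390% of all genes. klhl38b (ENSDARG00000040278), a Kelch-like gene chosen after its values were seen, is the neighbour of fbxo32 in the RefSeq annotation, with 0 protein-coding genes between them. It averaged 154 ± 63.4 normalised counts in exposed larvae and 477 ± 160 in controls (log2 fold change -1.65, adjusted p = 0.0296). Here the groups overlapped slightly, since 0.03 ppm replicate 2 reached 306 and control replicate 2 stood at 300. The call of klhl38b was lost in 8 of 12 fits that left out a library, with adjusted p = 0.231 and 0.276 without control replicates 1 and 3.

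Of genes for the contractile apparatus, 41 of 69 tested were lower and 2 were called. These shares were 59.4% and 2.90%, against 52.5% and 0.390% of all genes. Neither called gene encodes a filament protein. DUSP27 (ENSDARG00000099889) encodes an atypical, catalytically inactive phosphatase needed for the order of myofibrils. It spanned 463 to 650 normalised counts in exposed larvae, with a median of 566, and stood at 1491, 1099 and 1560 in controls 1, 2 and 3. The gap between the groups was wider than the range of the exposed libraries (log2 fold change -1.32, SE 0.118, adjusted p = 0.000190). ppp1r27b (ENSDARG00000100504), a regulatory subunit of protein phosphatase 1, averaged 63.9 ± 23.4 in exposed larvae and 255 ± 93.6 in controls (adjusted p = 0.00343). txlnbb (ENSDARG00000076241), a taxilin of muscle chosen after its values were seen, showed the smallest drop of all called genes, with 1593 ± 128 in exposed larvae and 2357 ± 181 in controls (log2 fold change -0.57, adjusted p = 0.0122).

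The median of the sarcomere list was -0.04, or 0.12 without control replicate 2, and its summed share of all counts was 8.59% to 13.1% in exposed libraries and 11.5% to 12.3% in controls. In whole larvae, fewer cells of a type and less RNA per cell cannot be told apart. trim63a, DUSP27 and ppp1r27b were called whichever single library was left out. fbxo32 missed the threshold without control replicate 1 (adjusted p = 0.0610) or control replicate 3 (adjusted p = 0.0527), and pdk2b without control replicate 3 (adjusted p = 0.0834). txlnbb missed it without each of the controls 1, 2 and 3 (adjusted p = 0.0541, 0.113 and 0.0688).

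Interferon signalling genes were lower as a rule. Of 60 tested, 48 were lower in exposed larvae and 12 higher, the median log2 fold change was -0.34, and 30 of the 60 had an unadjusted p under 0.05, against 8.20% of all genes. The 4 called members were stat1b, NMI, ifi35 and PARP14, or 6.67%, against 0.390% of all genes. stat1b (ENSDARG00000076182), a copy of the transcription factor that relays interferon signals, was lowest among them in relative terms. It had 9 to 32 normalised counts in exposed libraries, with a median of 21, and 163, 130 and 90 in the controls. Even the lowest control was far above the highest exposed library, a 6.36-fold drop in the fit (log2 fold change -2.67, SE 0.324, adjusted p = 0.00174).

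NMI (ENSDARG00000100275) encodes the N-myc and STAT interactor, an interferon-induced partner of STAT proteins. Its 9 exposed values lay between 278 and 572 (median 360), and its controls were at 853, 901 and 729 (log2 fold change -1.08, adjusted p = 0.00173). ifi35 (ENSDARG00000075643) encodes the binding partner of NMI. It ran from 118 to 198 in exposed libraries (median 157), against 364, 376 and 199 in the controls, so that the groups were separated by a single count at 1 ppm replicate 2 and control replicate 3 (log2 fold change -0.95, adjusted p = 0.00845). PARP14 (ENSDARG00000040445), an ADP-ribosyltransferase with macro domains, averaged 196 ± 38.4 in exposed larvae and 337 ± 76.0 in controls (log2 fold change -0.78, adjusted p = 0.0105). In all 4 genes the lowest control was replicate 3.

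Near these stood a ubiquitin ligase gene, a gene of antigen processing and a neighbour of NMI. All lay outside the rule for named genes and were chosen after their values were seen. DTX3L (ENSDARG00000075504), a ubiquitin ligase that works with PARP proteins, ran from 43 to 117 in exposed larvae (median 63) and averaged 155 ± 83.0 in controls (adjusted p = 0.0166), with the lowest control, at 73, inside the exposed range. tapbpl (ENSDARG00000058351), a peptide editor of MHC class I, was at 35 to 48 in exposed libraries and at 75, 129 and 67 in controls (log2 fold change -1.11, adjusted p = 0.0203). CABZ01079480.1, which lies beside NMI with 0 protein-coding genes between, averaged 81.1 ± 12.7 in exposed larvae and 140 ± 24.7 in controls (adjusted p = 0.0252). The interferon list was lower within each replicate number, with medians of -0.46, -0.56 and -0.17 in numbers 1, 2 and 3, and over all alternatives its median ran from -0.56 to -0.27. Without the block, NMI and ifi35 had adjusted p = 0.0629 and PARP14 had adjusted p = 0.180. Without control replicate 1, ifi35 and PARP14 had adjusted p = 0.124, and without control replicate 2 they had 0.0752 and 0.0665. DTX3L had adjusted p = 0.192 and 0.128 without control replicates 1 and 2, and 0.570 without the block. tapbpl had adjusted p = 0.111 and 0.160 without control replicates 1 and 2. CABZ01079480.1 lost its call in 7 of 12 fits that left out a library, with adjusted p = 0.262 without control replicate 1, 0.109 without control replicate 2, 0.0827 without control replicate 3 and 0.104 without the block.

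Of 41 proteasome genes 2 were called lower (4.88%, against 0.390% of all genes), both of them activators rather than core subunits. An unadjusted p under 0.05 was reached by 5, or 12.2%, against 8.20% of all genes. psme4a (ENSDARG00000087911) encodes PA200, a large activator that caps the proteasome. It averaged 247 ± 57.2 normalised counts in exposed larvae and 594 ± 90.8 in controls, with 146 to 325 in exposed libraries against 680, 499 and 602 in controls (log2 fold change -1.29, adjusted p = 0.00214). psme2 (ENSDARG00000033144), a subunit of the interferon-inducible activator PA28, averaged 288 ± 43.5 in exposed larvae and 554 ± 162 in controls (log2 fold change -0.92, adjusted p = 0.0391). Its call was lost in 9 of the 12 fits that left out a library, and without control replicate 1 its log2 fold change was -0.59 (adjusted p = 0.291). In the whole list the log2 fold change was negative in 36 genes (87.8%, against 52.5% of all genes), with a median of -0.10.

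The list of macrophage and microglia markers gave the highest share of calls of any list, 5 of 58 tested or 8.62%, against 0.390% of all genes. Of the 58, 44 were lower (75.9%, against 52.5% of all genes). The log2 fold change of the median member was -0.22. mpeg1.2 (ENSDARG00000043093) encodes a perforin-like protein of macrophages. It had 255 to 567 normalised counts in exposed libraries (median 418) and 1066, 1005 and 1768 in controls, with no overlap (log2 fold change -1.63, SE 0.194, adjusted p = 0.00168). irg1l (ENSDARG00000062788) is a relative of the enzyme that makes itaconate in activated macrophages. Its place on the list does not show which cells of a whole larva express it. irg1l ran from 99 to 260 in exposed libraries (median 212), against 513, 583 and 1380 in controls, of which replicate 3 was the highest (log2 fold change -2.02, adjusted p = 0.00267). Next to irg1l in the RefSeq order come the clone-named si:ch211-153b23.3 and si:ch211-153b23.4, given for that position and likewise called lower, with log2 fold changes of -2.65 and -1.30. si:ch211-153b23.3 kept its call without any single library, and si:ch211-153b23.4 had adjusted p = 0.0976 and 0.161 without control replicates 2 and 3 and 0.0526 without the block.

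lygl1 (ENSDARG00000056874), a goose-type lysozyme, showed close agreement among controls at 521, 576 and 501, while exposed libraries had 168 to 317 (log2 fold change -1.27, adjusted p = 0.00174). ctss2.2 (ENSDARG00000013771), a cathepsin S of lysosomes, averaged 370 ± 105 in exposed larvae and 847 ± 272 in controls (adjusted p = 0.00238, and adjusted p = 0.0949 without the block). grn2 (ENSDARG00000088641), one of the granulin growth factor genes, averaged 87.8 ± 29.8 in exposed larvae and 311 ± 212 in controls (log2 fold change -1.70, adjusted p = 0.0194). Much of that spread came from control replicate 2 at 556, and without it the log2 fold change was -1.37 (adjusted p = 0.153). It also missed the threshold without control replicate 1 (adjusted p = 0.0558), without control replicate 3 (adjusted p = 0.0894) and without the block (adjusted p = 0.107).

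Outside the list, CD68 (ENSDARG00000055504), a lysosomal glycoprotein of macrophages, averaged 1744 ± 196 in exposed larvae and 2974 ± 666 in controls (adjusted p = 0.0236). lacc1 (ENSDARG00000076914), a regulator of macrophage metabolism, averaged 51.4 ± 13.8 in exposed larvae and 115 ± 53.6 in controls (adjusted p = 0.0122). Both were chosen after their values were seen. CD68 lost its call in 4 of 12 fits that left out a library, with adjusted p = 0.215 without control replicate 1, where the log2 fold change was -0.53, and adjusted p = 0.117 without control replicate 3. lacc1 had adjusted p = 0.124 and 0.161 without control replicates 1 and 3, and 0.213 without the block. The list as a whole took 0.149% to 0.203% of counts in exposed libraries and 0.165% to 0.228% in controls, ranges that overlap. Within replicate numbers its median was 0.13, -0.59 and -0.22, so number 1 went the other way.

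Neutrophil markers and NADPH oxidase genes had 0 called of 29, with 19 lower and 4 at an unadjusted p under 0.05. The member with the smallest p, nox1 (ENSDARG00000087574), a superoxide-producing oxidase, ran from 73 to 158 in exposed larvae and stood at 148, 322 and 216 in controls, with overlap (adjusted p = 0.0903). It was called without control replicate 1 (log2 fold change -1.37, adjusted p = 0.00563) and with a weight for each library (adjusted p = 0.0154). Of cytokines and chemokines 22 of 41 were lower (median -0.09, or 0.10 without control replicate 2) and 2 were called. These shares were 53.7% and 4.88%, against 52.5% and 0.390% of all genes. Both called genes were relatives of CCL20, a chemokine that attracts lymphocytes and dendritic cells in mammals. ccl20a.3 (ENSDARG00000101040) ran from 9 to 27 normalised counts in exposed libraries and stood at 71, 53 and 113 in controls (log2 fold change -1.91, adjusted p = 0.0210). ccl20b (ENSDARG00000094511) ran from 12 to 52 in exposed libraries, against 111, 153 and 81 in controls (log2 fold change -2.04, adjusted p = 0.0238).

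alox5b.1 (ENSDARG00000043085), a lipoxygenase of the leukotriene pathway, was at 12 to 39 in exposed larvae and at 76, 49 and 103 in controls (log2 fold change -1.76, adjusted p = 0.0278). In these 3 genes no exposed library reached a control, yet the calls were fragile. ccl20a.3 had adjusted p = 0.192 and 0.231 without control replicates 1 and 3. ccl20b had adjusted p = 0.111, 0.138 and 0.166 without control replicates 1, 2 and 3 and 0.0640 without the block. alox5b.1 lost its call in 6 of 12 such fits, with an adjusted p of up to 0.296.

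Autophagy receptors were the called part of the autophagy list, in which 29 of 38 genes were lower (76.3%, against 52.5% of all genes). The list's median log2 fold change was -0.10, and 5.26% of it was called, against 0.390% of all genes. calcoco1b (ENSDARG00000016391), of the family of the autophagy receptor NDP52, had 47 to 90 normalised counts in exposed libraries (median 71) and 320, 230 and 325 in controls (log2 fold change -2.07, SE 0.217, adjusted p = 0.000483). calcoco2 (ENSDARG00000052515), which encodes NDP52 itself in mammals, averaged 244 ± 24.8 in exposed larvae and 440 ± 46.4 in controls (adjusted p = 0.00374, and adjusted p = 0.0651 without control replicate 1). In both genes the groups were far apart relative to their spread.

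The smallest p of the whole comparison belonged to plekhs1 (ENSDARG00000079227), which encodes a protein with a pleckstrin homology domain. It had 141 to 302 normalised counts in exposed libraries (median 168) and 579, 661 and 1407 in controls, a 4.25-fold drop (log2 fold change -2.09, SE 0.139, adjusted p = 2.52e-05). Of the 2 tested genes written PLEKHS1, the one with the identifier ENSDARG00000070041 averaged 76.0 ± 21.1 in exposed larvae and 244 ± 72.4 in controls (adjusted p = 0.00371), and the other missed the threshold (log2 fold change -0.57, adjusted p = 0.518). mkrn1 (ENSDARG00000041665), a ubiquitin ligase with zinc fingers, was among the tightest, at 711 to 873 in exposed libraries and 1446, 1325 and 1716 in controls (log2 fold change -0.93, SE 0.0805, adjusted p = 0.000161). PLEKHS1 and mkrn1 lie outside the rule and were chosen after their values were seen. mkrn1 kept its call without any single library, and PLEKHS1 (ENSDARG00000070041) had adjusted p = 0.0527 without control replicate 3.

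URGCP (ENSDARG00000036767) averaged 260 ± 93.4 in exposed larvae and 1379 ± 484 in controls (log2 fold change -2.43, adjusted p = 0.00243). krt96 (ENSDARG00000095147), an epithelial keratin, was at 191 to 723 in exposed libraries and at 1878, 1416 and 1450 in controls (log2 fold change -2.23, adjusted p = 0.0114). It was the 1 called member of 53 keratins and claudins (1.89%, against 0.390% of all genes), of which 27 were lower and 26 higher. The median of that list was -0.03, and 0.02 under quantile normalisation. Within the exposed group krt96 averaged 571 ± 188 at 0.03 ppm, 276 ± 98.0 at 0.3 ppm and 260 ± 59.6 at 1 ppm. The call of krt96 was lost without control replicate 1 (adjusted p = 0.124) or control replicate 3 (adjusted p = 0.0894).

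**Figure D2:**
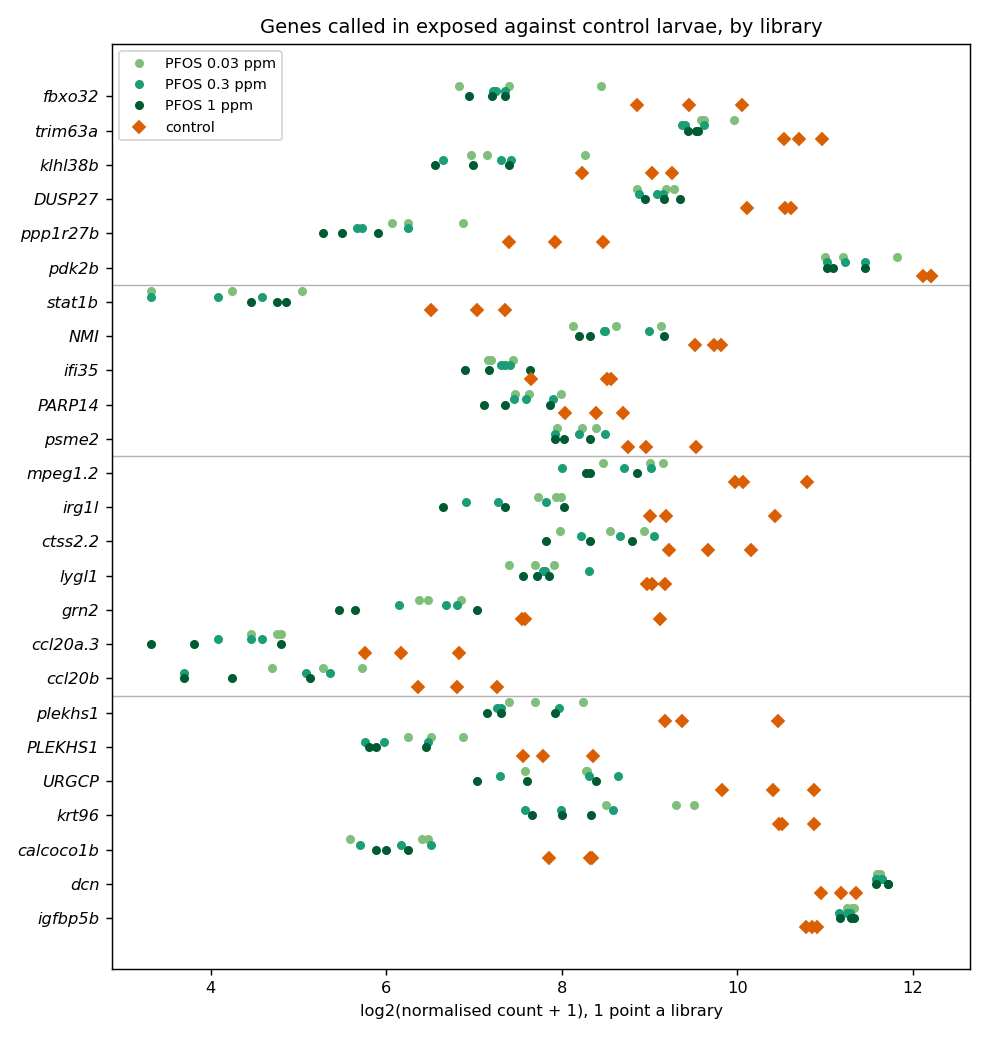
Values of 25 called genes in every library, as log2 of the normalised count plus 1. Circles are the 9 exposed libraries, darker with dose, and diamonds are the 3 controls. From the top the blocks hold genes of the atrophy and sarcomere lists with klhl38b, then interferon genes with psme2. Below them stand genes of the macrophage and cytokine lists and other called genes. Diamonds lie to the right of the circles in all rows but the lowest, dcn and igfbp5b, except that the groups cross in klhl38b (highest exposed 306, lowest control 300) and nearly meet in ifi35 (198 and 199) and PARP14 (254 and 262).

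Of the 87 called genes 44 carry a gene name, and 26 of these were named by the rule. The 10 not described above, given here after their values were seen, lie between -2.17 and -0.75 in log2 fold change. They include ascl1b (ENSDARG00000009702), a proneural transcription factor (log2 fold change -0.93), spsb3b, a SOCS box gene at 2 to 7 normalised counts in exposed libraries and 18 to 45 in controls, and epdl1, an ependymin relative (-0.75). adgrf6, an adhesion G protein-coupled receptor, had -1.07, gna15.2, a G protein alpha subunit, had -1.15, and fuca1.1, a lysosomal fucosidase, had -0.75. The rest were the sulfotransferase gene sult5a1 (-1.13), the dehydrogenase gene dhrs13b (ENSDARG00000097019, -1.01), ms4a17a.4 (-1.04) and tmem176l.4 (-0.75). Among them sult5a1 and dhrs13b overlapped between the groups.

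Each of these 10 genes lost its call when some single library was left out. Such fits hold fewer libraries, and without control replicate 1 the whole comparison called 34 genes. Without control replicate 1 each missed the threshold, with adjusted p from 0.0629 for ascl1b to 0.337 for dhrs13b. Without control replicate 3 all but ascl1b and adgrf6 missed it, from 0.0652 for epdl1 to 0.383 for tmem176l.4. Without control replicate 2 it was missed by gna15.2, sult5a1 and dhrs13b (adjusted p = 0.196, 0.172 and 0.0948). sult5a1, fuca1.1, gna15.2, tmem176l.4 and dhrs13b lost the call in 7, 7, 9, 10 and 11 of the 12 fits, single exposed libraries included. Without the block 7 of the 10 missed the threshold, from 0.0782 for gna15.2 to 0.577 for dhrs13b.

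The other 43 called genes have only a clone or locus name, 49.4% of the called against 19.9% of the genes tested, and all 43 were lower. Their median log2 fold change was -1.98, against -1.16 for the lower genes with a name. The strongest by p was si:dkey-239b22.1, at 703 to 1625 normalised counts in exposed libraries and 8203, 5302 and 7128 in controls (log2 fold change -2.61, adjusted p = 4.50e-05). zgc:153932 had 399 to 845 in exposed libraries against 4800, 3408 and 5919 in controls (-2.93, adjusted p = 9.16e-05). si:dkey-247k7.2 had 1643 to 3178 in exposed libraries against 11536, 6499 and 8514 in controls (-2.01, adjusted p = 0.000282). FO704620.1 had 306 to 598 in exposed libraries against 1533, 1190 and 2602 in controls (-1.98, adjusted p = 0.000278). The largest fold change was that of zgc:172053, chosen after its values were seen, whose exposed libraries scattered from 3 to 99 while its controls held 395, 457 and 338 (log2 fold change -4.57, adjusted p = 0.0122). It missed the threshold without control replicate 1, 2 or 3 (adjusted p = 0.165, 0.0563 and 0.0527). In all 5 the groups were fully apart.

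Some of these genes share a clone in their names. Of 665 clone names with at least 2 genes tested, 17 held a called gene and 3 held at least 2, and these 3 are given for that reason. Of 7 genes named after the clone si:ch211-226h7, 6 were lower and 5 were called, with log2 fold changes of -3.25 to -2.04. Of 4 named after si:ch211-153b23, all were lower and 2 were called, and both genes of BX072532 were called lower. Without control replicate 1, si:ch211-226h7.2 and si:ch211-226h7.5 missed the threshold in limma (adjusted p = 0.0730 and 0.0541). BX072532.1 lost its call in 4 of 12 fits that left out a library. It had adjusted p = 0.165 and 0.238 without control replicates 1 and 3. si:ch211-226h7.6, si:ch211-226h7.7, si:ch211-226h7.8 and BX072532.2 kept their calls without any single library. In the RefSeq order of protein-coding genes (assembly GRCz12tu), 61 of the 87 called genes could be placed, and they formed 6 pairs at most 4 genes apart. zgc:172065 and si:dkey-187j14.4 were 1 of these pairs. The call of zgc:172065 stood without any single library. That of si:dkey-187j14.4 was lost in 7 of 12 such fits, with adjusted p = 0.300 without control replicate 1. No share over all genes was computed for such pairs, so their number is a description. Where neighbours are near-identical copies, the authors' counting may have divided reads between them, and its part in these values was not tested.

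Only decorin and an IGF binding protein were called higher, and both by little. dcn (ENSDARG00000012066) encodes decorin, a proteoglycan that decorates collagen fibrils. Its 9 exposed values were tight, 3045 to 3371 with a median of 3158, and its controls were 1979, 2605 and 2313 (log2 fold change 0.48, SE 0.0859, adjusted p = 0.0296). igfbp5b (ENSDARG00000025348) encodes a binding protein of insulin-like growth factors that associates with matrix and bone. It ran from 2289 to 2574 in exposed libraries and stood at 1847, 1755 and 1914 in controls (log2 fold change 0.42, SE 0.0775, adjusted p = 0.0351). In neither gene did the groups overlap. Leaving out 1 library ended the call of dcn in 8 of 12 fits and that of igfbp5b in 9 of 12, with adjusted p of up to 0.316 and 0.211, and without the block they had adjusted p = 0.0532 and 0.0526.

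Matrix genes around dcn leaned the same way without further calls. In the cartilage and bone list 44 of 48 genes were higher, with a median log2 fold change of 0.28, and 14 had an unadjusted p under 0.05 (29.2%, against 8.20% of all genes). Its median within replicate numbers was 0.53, -0.04 and 0.25. Collagens were higher in 30 of 32 members, with a median of 0.22, 0 called and 10 at an unadjusted p under 0.05, and their medians within numbers were all positive (0.32, 0.19 and 0.11). The leading collagen was col6a2 (ENSDARG00000061436), a chain of collagen VI, with 2751 ± 551 normalised counts in exposed larvae and 2062 ± 321 in controls (log2 fold change 0.40, adjusted p = 0.137).

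Gene lists of other organs had 0 calls in limma. Liver genes were higher in 54 of 63 members (median 0.28, 7 at an unadjusted p under 0.05), but within replicate numbers the medians were 0.04, -0.02 and 0.80, and without control replicate 3 the median was 0.00. Complement and coagulation genes gave 0.05, -0.23 and 0.81 (4 at an unadjusted p under 0.05), and their pooled median of 0.20 was -0.06 without control replicate 3. The 22 genes of exocrine pancreas were all lower (median -0.29, and 0.06 without control replicate 3), with 0 at an unadjusted p under 0.05 and within-number medians of -0.37, 0.49 and -0.98. In these organs the sign thus depended on the replicate number. Brush border genes of the intestine were higher in 36 of 40 (median 0.21), genes of bile acid handling in 21 of 26 (0.22), erythrocyte genes in 22 of 29 (0.17), heart genes in 26 of 32 (0.16) and transcripts of the mitochondrial genome in 12 of 13 (0.25). For each of these 5 lists the median stayed positive in all 33 alternatives, and 2, 0, 6, 3 and 1 members had an unadjusted p under 0.05. Within replicate numbers, however, the heart median was 0.31, -0.07 and 0.27, and the mitochondrial median was -0.06, 0.25 and 0.54. The medians of brush border, bile acid and erythrocyte genes were positive within each number, the lowest of them 0.08, 0.08 and 0.01.

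Neuronal genes were lower in 51 of 64 members (median -0.14), with within-number medians of -0.77, 0.08 and 0.36. Without control replicate 1, the library apart on the second component, the median was 0.21. With all 12 libraries 0 members had an unadjusted p under 0.05. Lens crystallins were lower in 52 of 55 (median -0.27), and negative within all 3 numbers at -0.06, -0.52 and -0.15, with 1 member at an unadjusted p under 0.05. Ribosomal protein genes were lower in 84 of 85 (median -0.11), with -0.09, -0.16 and -0.10 within numbers and 0 members at an unadjusted p under 0.05. The part of these tissue markers in the values of the called genes was not tested.

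**Figure D3:**
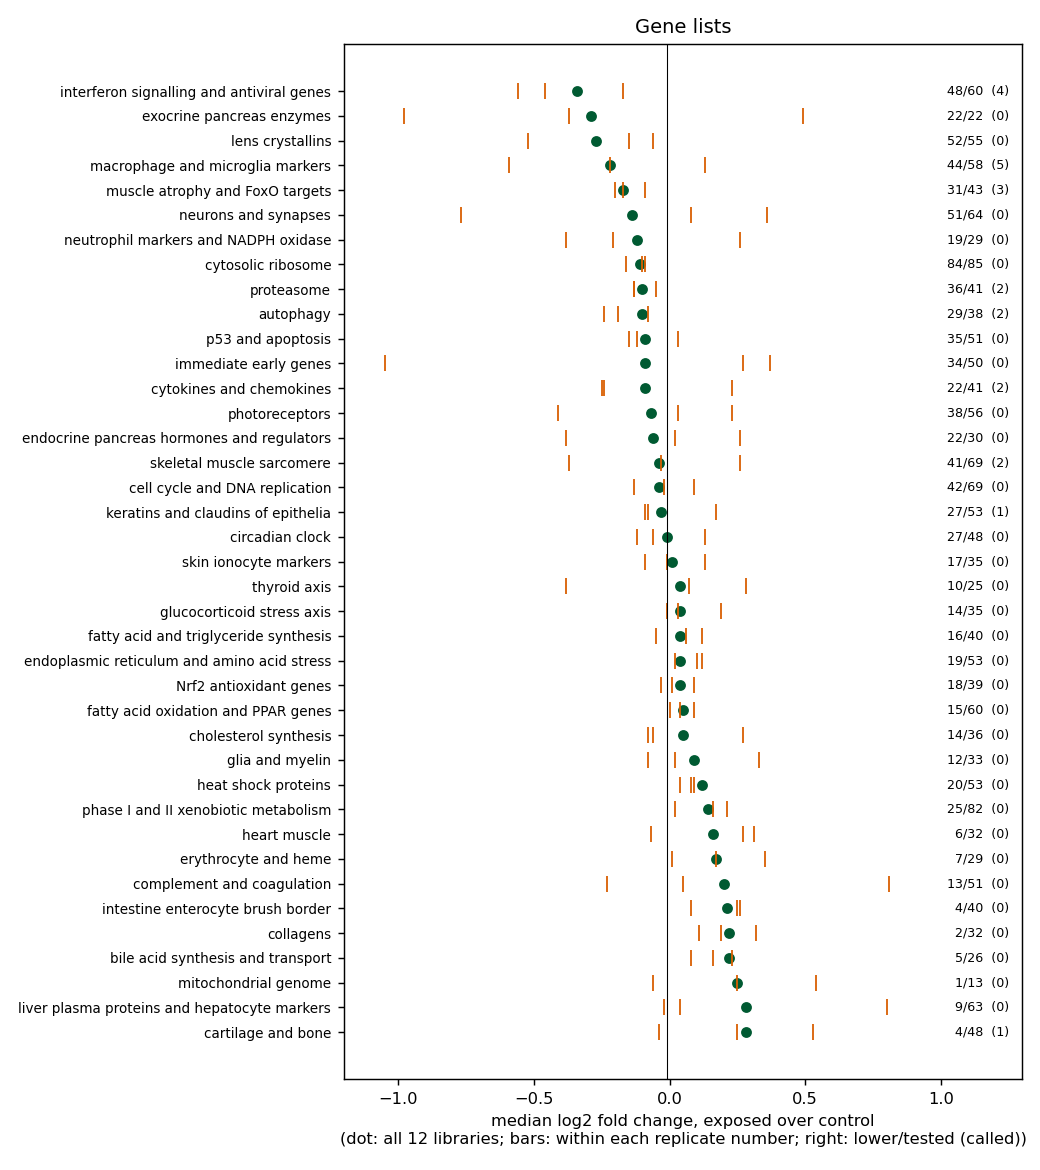
Median log2 fold change of exposed over control larvae for 39 gene lists, lowest at the top. Dots use all 12 libraries, short bars the 3 replicate numbers apart, and the figures on the right give members lower, members tested and, in brackets, members called. Interferon genes head the plot at -0.34 and cartilage and bone genes end it at 0.28, and the bars of exocrine pancreas (-0.98 to 0.49), immediate early genes (-1.05 to 0.37) and neurons (-0.77 to 0.36) spread widest.

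The lists of lipid, xenobiotic, antioxidant, stress, apoptosis and hormone axis genes given here held no called member. The called sulfotransferase gene sult5a1, given above, was on no list. Fatty acid oxidation and PPAR genes had a median of 0.05 with 45 of 60 higher and 1 at an unadjusted p under 0.05. The medians were 0.04 for fatty acid and triglyceride synthesis, 0.05 for cholesterol synthesis, 0.04 for Nrf2 antioxidant genes and 0.04 for stress genes of the endoplasmic reticulum, with 3, 1, 3 and 5 members at an unadjusted p under 0.05. Without control replicate 3 the synthesis lists had a negative median, as had the Nrf2 list without control replicate 1. Xenobiotic enzymes of phases I and II were higher in 57 of 82 (median 0.14, 8 at an unadjusted p under 0.05), and cyp2aa8 led with 295 ± 123 normalised counts in exposed larvae and 130 ± 76.2 in controls (adjusted p = 0.384). Thyroid and glucocorticoid axis genes had medians of 0.04 each, negative without control replicate 3, with 2 and 3 members at an unadjusted p under 0.05. Heat shock proteins had a median of 0.12, with 33 of 53 higher and 7 at an unadjusted p under 0.05. Genes of p53 and apoptosis had -0.09, with 35 of 51 lower and 7 at an unadjusted p under 0.05.

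The remaining lists stayed near 0 or changed sign with 1 control, and none of their members was called. Immediate early genes had a median of -0.09 with -1.05 in number 2 and positive values in the others. Photoreceptor genes had -0.07 and endocrine pancreas genes -0.06, both positive without control replicate 1. Glial genes had 0.09, cell cycle genes -0.04, skin ionocyte genes 0.01 and circadian clock genes -0.01, and the last turned positive when libraries were scaled to equal totals. In these 7 lists 2, 2, 0, 2, 4, 2 and 2 members had an unadjusted p under 0.05.

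Some named members of these lists did not overlap between the groups and yet missed the threshold. Over all genes tested, 296 (1.33%) did not overlap, and the list members without overlap were not counted. C1S, gpx1b and rrm2 were among the named ones (adjusted p = 0.439, 0.477 and 0.486). The 4 given here came nearer to the threshold. hspb6, a small heat shock protein of muscle, was at 630 to 1081 in exposed libraries and 496, 523 and 501 in controls (log2 fold change 0.61, adjusted p = 0.167). mthfd2, a mitochondrial folate enzyme that rises in the amino acid stress response, was at 674 to 947 in exposed libraries against 526, 584 and 531 in controls (0.49, adjusted p = 0.0730). mcl1a, a survival factor of the BCL2 family, had 2467 to 3451 in exposed libraries against 3554, 5190 and 4225 in controls (-0.56, adjusted p = 0.0724). abca1a, a cholesterol exporter, averaged 2207 ± 378 in exposed larvae and 3152 ± 427 in controls (-0.52, adjusted p = 0.118). In these 4 genes exposed and control libraries were fully apart, but the p adjusted over all genes missed the threshold. mcl1a passed it with equal totals (adjusted p = 0.0496), with library weights (0.0400) and without 0.03 ppm replicate 1 (0.0274).

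Across lists, 1717 tested genes were members and 22 of them were called, 21 lower and 1 higher. Over all genes tested, 0.390% were called, 52.5% were lower and 8.20% had an unadjusted p under 0.05. The counts of every list stand beside these shares. The lists were chosen with earlier results of these data known, so their counts describe the members and are no independent evidence.

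The genes called lower in the pooled comparison had negative log2 fold changes at each dose, which their choice favours. Over the 85 lower genes the median log2 fold change against control was -1.45 at 0.03 ppm, -1.61 at 0.3 ppm and -1.85 at 1 ppm, 3 values that share the same controls. The difference of 1 ppm minus 0.03 ppm, which does not involve the control, had a median of -0.21, and 65 of the 85 genes (76.5%) were lower at 1 ppm than at 0.03 ppm. Among all genes tested 47.5% were, with a median of 0.01. The 85 genes were read in the same 3 libraries a dose and are not replicates of a dose. Their shared lean may come from a few libraries, which was not tested. A stepwise decline over the 3 doses was seen in 38 of the 85. No share over all genes was computed for such a decline, so this count is a description.

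None of the called genes passed a test of differences between the doses. An F test that the 3 doses have 1 mean, in a fit with a coefficient for each group, called 0 of the 87 genes, and 6 of them (6.90%) had an unadjusted p under 0.05, against 815 of all genes (3.65%). The lowest p among the named ones was that of krt96, with log2 fold changes of -1.52, -2.56 and -2.62 at 0.03, 0.3 and 1 ppm (unadjusted p = 0.00282, adjusted p = 0.989). fbxo32 had -1.89, -2.18 and -2.28, mpeg1.2 had -1.40, -1.70 and -1.79, and stat1b had -2.76, -2.97 and -2.28. An adjusted p near 1 does not show that the doses act alike.

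In the series as a whole the F test called 1 gene (0.00448%), FO904928.1 (ENSDARG00000100529). It was listed at 0 in all libraries of 0.03 ppm and of the control, at 42, 16 and 72 in those of 0.3 ppm and at 47, 45 and 49 in those of 1 ppm (adjusted p = 0.00598). In the pooled comparison this gene was not called (adjusted p = 0.533), but the mean of the 3 doses in the fit with a coefficient for each group was (adjusted p = 0.00227), as was the pooled value without the 0.03 ppm libraries (adjusted p = 0.000833). The F test called 0 genes when 0.03 ppm replicate 1, 0.03 ppm replicate 3 or any 1 library of 1 ppm was left out.

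**Figure D4:**
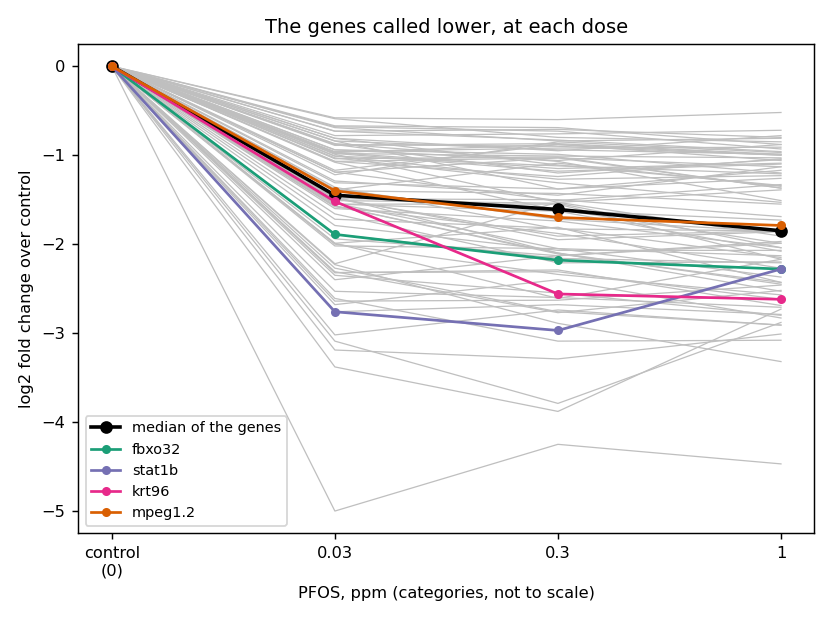
Log2 fold change over the control at each PFOS concentration for the 85 genes called lower, 1 grey line a gene, with the median in black and 4 genes in colour. Concentrations are drawn as categories and the control is 0 by definition. The median is -1.45 at 0.03 ppm and -1.85 at 1 ppm. The genes were chosen for a low pooled value against the same controls, so that a drop at each dose follows in part from the choice.

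The pooled exposed libraries spread about as widely as the controls. Over the 85 genes the median SD on the log2 scale was 0.45 among the 9 exposed libraries and 0.42 among the 3 controls, and the control SD was the larger in 42 of them. Over all genes these medians were 0.28 and 0.26. Among exposed libraries, the highest value of a lower gene was most often in 0.03 ppm replicate 2 (25 of 85) and the lowest most often in 1 ppm replicate 1 (18 of 85).

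The number of calls moved with the libraries and the model. Without the block 54 genes were called, all among the 87, and without the libraries of 0.3 ppm 29 were called. Among the 30 called genes named by the rule, 17 were called whichever single library was left out, and 9 kept their call in every alternative: stat1b, plekhs1, calcoco1b, trim63a, DUSP27, si:dkey-239b22.1, zgc:153932, FO704620.1 and si:dkey-247k7.2.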

How the data were processed

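Poly-A RNA of whole larvae was sequenced in pairs from strand-marked libraries, per the labels' protocols. Tools listed in the submitters' processing notes are DESeq2 1.10.1, RSEM 1.2.28, CASAVA and, beside the assembly GRCz10, STAR 2.5.1b. The deposited values of each library are the authors' normalized counts rounded to whole numbers, and were handled as a score, not as raw counts. Depth was estimated from the spacing of these values, which could be read in 11 of 12 libraries, so 0.3 ppm replicate 3 was given a factor of 1.

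Values entered as log2(value + 1), which understates the change of low genes. limma 3.58.1 in R 4.3.3 fitted exposure with the replicate number as a block and a variance trend, two-sided, and p-values were adjusted by Benjamini-Hochberg over the 22320 genes with a value of 10 or more in at least 3 libraries. The fit was tested on simulated data. For the pairing, the mean of the 3 exposed libraries of a number was correlated with a control. With the control of the same number the correlations were 0.330, 0.460 and 0.162 for numbers 1, 2 and 3, each over 0.1. Between different numbers the correlations ran from -0.376 to 0.178. Number 3 thus lay inside the range of different numbers, and these values do not show that its libraries pair. The check of the pairing comes from these data, since the labels do not say what a number marks. No 2 libraries were identical.

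Named genes were the 12 with a gene symbol that were lowest and the 12 highest among called genes without overlap and with a group mean of at least 50, the 4 clone-named genes of smallest p, called list members, the member of smallest p in each list, and the 5 genes of smallest p between doses. The comparison, the members and the lists were chosen with earlier results of these data known. Clone or locus names were told by their form. Neighbouring genes were taken from the RefSeq order of assembly GRCz12tu, without coordinates. Alternatives changed scaling, filter, pseudocount, model or libraries.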

Additional observations from a re-analysis of the deposited data

Results flagged for a closer look

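Among the 9 exposed libraries, 1 library stood far from the other 8 in 6 of the 65 genes examined by name, and in 5 of the 6 it was 0.03 ppm replicate 2. There fbxo32 was at 347 normalised counts (113 to 168 in the other exposed libraries), ca2, a carbonic anhydrase, at 2682 (1279 to 1776) and cyp7b1, a sterol hydroxylase, at 387 (279 to 328). In the same library klf1, an erythroid transcription factor, was at 35 (61 to 86) and ptf1a, a pancreatic transcription factor, at 8 (18 to 34). In 0.03 ppm replicate 1 trim63a was at 994 (658 to 784). About 1 in 20 groups would hold such a gap by chance.

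Differences between the doses were flagged for 3 genes, all of them named for a small p in the F test between doses. Only FO904928.1, described above, passed that test, with an adjusted p of 0.00598 in limma. CABZ01011067.1 differed by 1.98 on the log2 scale between 1 and 0.03 ppm, and cda, a cytidine deaminase, by 1.2. In both, the doses lay on opposite sides of the control, and beyond that F test (adjusted p = 0.813 for each) the difference was not tested.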

How the results depend on the processing

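The 87 calls became 54 without the replicate block, all of them among the 87, 29 without the libraries of 0.3 ppm and 52 without those of 1 ppm. With log2 of the estimated reads as a covariate, chosen after seeing the data, 45 were called. Leaving out 1 replicate or library gave 25 to 93 calls, the fewest without replicate 1. Under the other alternatives the count stayed within 1.5 times 87. In 989 values over 33 alternatives the 30 called genes named by the rule kept the call in 840, missed the threshold in 149 and reversed in 0. Of the named genes not called, FO904928.1, si:dkey-61n16.5, noxo1a, mcl1a and nox1 were called in 1 to 3 alternatives each. Scaling moved the median of all genes by at most 0.021.

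The F test between doses called 0 genes in place of 1 with a filter at 50 and with a pseudocount of 10, and 0 to 1 when a library was left out. CABZ01011067.1, uncalled at -0.08, spanned -0.28 to 0.18 when 1 library was left out and reversed to 0.10 with library weights, to 0.03, 0.09 and 0.18 without 0.03 ppm replicates 1, 2 and 3, to 0.03 without control replicate 3 or replicate 3 and to 0.50 without the 0.03 ppm libraries. cda, uncalled at 0.12, spanned -0.11 to 0.29 in such fits and reversed to -0.03 without 1 ppm replicate 3, to -0.11 without control replicate 3 or replicate 3, to -0.22 without the 1 ppm libraries and to -0.07 with the depth covariate. The cause was not tested. Normalised counts carry no exact depth, so counting error was not separated from biological spread.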

Other observations

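After FO904928.1, 4 genes had the smallest p-values between doses, each with adjusted p = 0.813 in limma, and none was called in the pooled comparison. cda had 258, 244 and 215 normalised counts at 0.03 ppm, 345, 281 and 293 at 0.3 ppm and 447, 604 and 607 at 1 ppm, against 340, 403 and 226 in controls. CABZ01011067.1 had 25, 19 and 24 at 0.03 ppm, 49, 63 and 93 at 0.3 ppm and 62, 62 and 199 at 1 ppm, against 39, 44 and 94 in controls. si:dkey-61n16.5 had 290, 221 and 280 at 0.03 ppm, 279, 248 and 264 at 0.3 ppm and 473, 349 and 473 at 1 ppm, against a mean of 211 ± 33.3 in controls (SD, n = 3). noxo1a, an organizer of the NADPH oxidase NOX1, averaged 264 at 0.03 ppm, 122 at 0.3 ppm and 163 at 1 ppm, against 357 in controls (pooled log2 fold change -1.04, adjusted p = 0.221). The mean of the doses was called with 1 coefficient a group for noxo1a (adjusted p = 0.00886) and si:dkey-61n16.5 (adjusted p = 0.0483), and noxo1a also without the 0.03 ppm libraries (adjusted p = 0.0164). The gene of the oxidase itself, nox1, had the smallest p of the neutrophil and oxidase list without being called.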
